A study of Homo sapiens with 3 samples.

Results

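GDF15, SESN2, DDIT4, STC2, VEGFA, VLDLR and TNFRSF10B encode secreted, cell-surface and metabolic outputs of cellular stress, and their expression was compared between A549 cells with and without knockdown of the RNA helicase DDX24. The 7 genes were selected by name from the 58735 genes in the deposited tables, with earlier results of these data known, and each name matched 1 gene. All 7 belonged to the 13984 genes compared, whose mean was 1 CPM or more (CPM being counts scaled to library size) over the libraries. A549 is an established human lung adenocarcinoma cell line. It was grown in F12K medium with 10% fetal bovine serum at 37 °C and 5% CO2, and 4 μg of total RNA went into each library. There were 3 libraries, 1 per condition. Control-sh is the control line, and DDX24-sh1 and DDX24-sh2 are lines that each carry 1 of 2 shRNAs directed at DDX24. The cells were stable lentiviral pLKO.1 lines kept under puromycin selection, and the control is described both as empty pLKO.1 vector and as a control shRNA. All 3 groups therefore shared viral transduction and selection, and whether a line was a pool or a clone was not given in the sources used here.

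The integrated stress response is a program in which kinases that sense amino acid shortage, misfolded protein in the endoplasmic reticulum or other stress phosphorylate eIF2α, lowering general translation while the transcription factor ATF4 is translated more. ATF4 and its partners activate genes for amino acid supply, and also genes whose products act outside the cell or on its metabolic switches. Several of the genes described here respond in addition to hypoxia through HIF, so they can be set beside the genes of both programs.

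Depth was 17218884 counts in Control-sh, against 18337471 in DDX24-sh1 and 17847190 in DDX24-sh2. Counts were scaled by edgeR's TMM method, and a log2 ratio is the log2 CPM (prior count of 2) of an shRNA library minus that of Control-sh. With 1 library per condition no test was possible. The intervals given are exact 95% binomial intervals from the counts of 2 libraries and cover counting error only. Both ratios of a gene share the same control library. DDX24 itself had 2010 counts in Control-sh, against 637 in DDX24-sh1 and 765 in DDX24-sh2, or 29.6% and 36.0% of the control level. The labels of the shRNA libraries differed between the deposited count and FPKM tables. The ratio of FPKM times gene length to the count was within 1% of a constant for 100% of genes with at least 50 counts only when the shRNA labels were exchanged, against 5.23% and 5.17% with the labels as given. Here the names follow the labels of the count tables, so any difference between the hairpins can be assigned to a library but not with certainty to a hairpin. Markers of the cell line were present. ALDH1A1 had 96250 counts in Control-sh and KRT8 had 64704. Of the epithelial markers KRT19 was higher after knockdown (1.07 and 1.36), CDH1 was lower (-0.68 and -1.12), and EPCAM had only 32 counts in Control-sh, while CDKN2A, which is deleted in A549, had 0 counts in all 3 libraries. Of 10 markers of leukocytes, endothelium and fibroblasts, 4 had 0 counts in each library, PTPRC and CD3E among them. The summed level of the list was 18.6 CPM in the control and 20.6 and 16.5 CPM after knockdown, with CD14 and COL1A1 the most abundant in Control-sh (139 counts each) and COL1A1 in the shRNA libraries. Within that sum LUM, a fibroblast marker, had 27, 80 and 68 counts (log2 ratios of 1.40 and 1.20), and the monocyte marker CD14 had 139, 108 and 75 (-0.46 and -0.95). Mitochondrial genes took 4.36% of the control counts, while the DDX24-sh1 and DDX24-sh2 shares were 5.13% and 7.04%. The part of the markers in the gene ratios was not tested, and that of the mitochondrial share not beyond leaving mitochondrial genes out of the library size, which moved no count of members past 2-fold.

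Length-scaled levels ordered the genes in the control library. GDF15 was at 284 CPM per kb of gene length, above 99.4% of the genes compared. DDIT4 followed at 73.9, TNFRSF10B at 62.2, STC2 at 42.0, SESN2 at 12.1, VLDLR at 7.04 and VEGFA at 4.84 CPM per kb. The length used was the union of all annotated exons, which for VEGFA (14431 bases) is far longer than its longest coding transcript (3535 bases). Scaled by the latter length, a choice made after seeing the data, GDF15 was at 493 CPM per kb, and VEGFA was at 19.7 CPM per kb and stood above SESN2 (12.1) and VLDLR (7.17). In the shRNA libraries GDF15 was closer to the genes below it. On the union length GDF15 was at 83.5 and 59.2 CPM per kb in DDX24-sh1 and DDX24-sh2, next to TNFRSF10B at 59.7 and 63.0 and DDIT4 at 58.8 and 52.1. The place of GDF15 in DDX24-sh2 depends on the length, since on the longest coding transcript it was at 103 CPM per kb there and TNFRSF10B at 78.4, and GDF15 was first in all 3 libraries. Together the 7 genes accounted for 1499 CPM in Control-sh, against 742 in DDX24-sh1 and 702 in DDX24-sh2. GDF15 made up 39.5%, 23.5% and 17.6% of their counts.

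**Figure D1:**
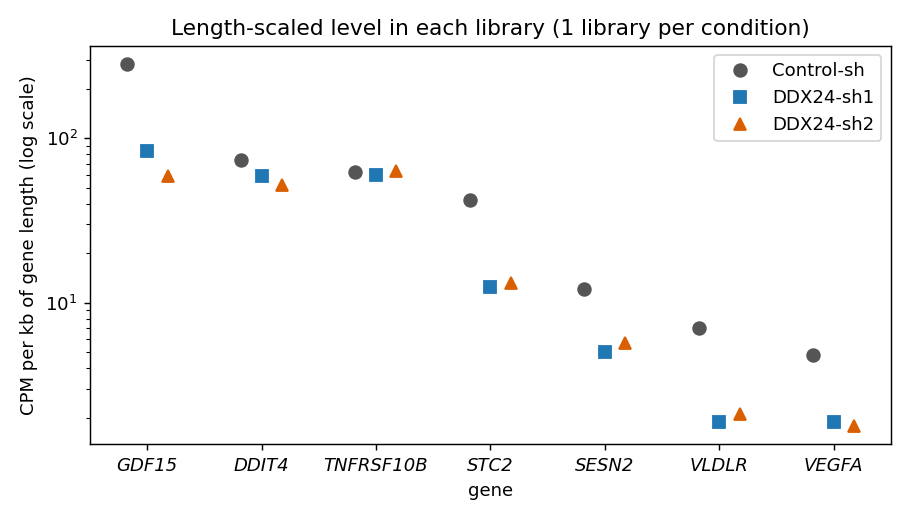
Level of each gene in the 3 libraries, in CPM per kb of gene length on a log axis, ordered by the control library (1 point per library, no replicates). GDF15 was the most abundant in Control-sh at 284 CPM per kb, while in DDX24-sh2 TNFRSF10B was at 63.0 and GDF15 at 59.2 on this length, an order that the longest coding transcript turns (78.4 and 103).

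Of the 7 genes, 5 (GDF15, SESN2, STC2, VEGFA and VLDLR) lay 2-fold or more below the control in both shRNA libraries, where 1.38% of all genes compared did. The same 5 passed this limit in each library taken alone, where 2.27% of all genes did in DDX24-sh1 and 3.07% in DDX24-sh2. DDIT4 was lower by less than 2-fold in both, and TNFRSF10B was near the control level. None was 2-fold higher in either library, where 2.32% of all genes compared were in DDX24-sh1, 2.89% in DDX24-sh2 and 1.19% in both. Since the genes were chosen with these values known, the counts are a description. In bulk RNA, fewer expressing cells and less RNA per cell cannot be told apart.

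**Figure D2:**
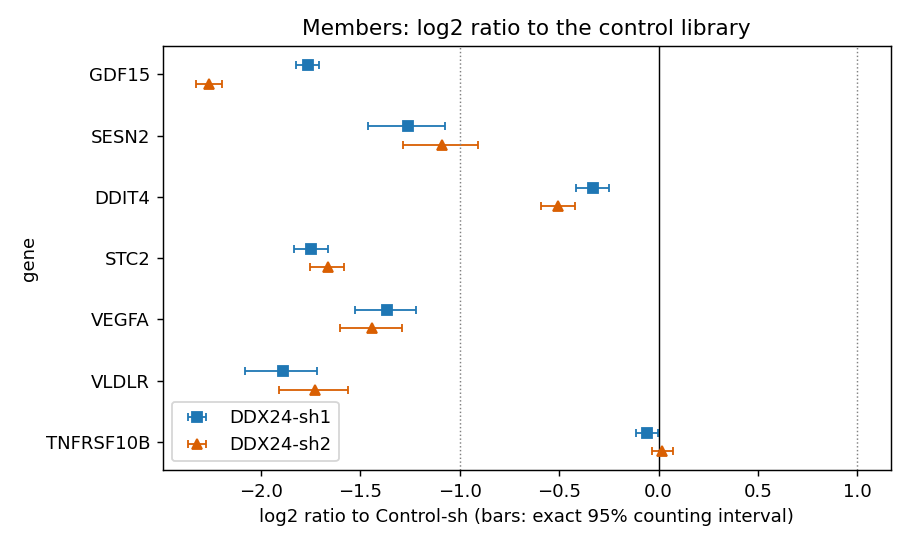
Log2 ratio of each gene to Control-sh in DDX24-sh1 and DDX24-sh2, with exact 95% counting intervals and dotted lines at 2-fold. GDF15, STC2, VEGFA, VLDLR and SESN2 lie beyond -1 in both libraries, DDIT4 at -0.33 and -0.50, and TNFRSF10B at -0.06 and 0.02.

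Sequences upstream of the start sites were taken from RefSeq (GRCh38.p14), which matched 5 of the 7 genes (all but VEGFA and TNFRSF10B), to show what the genes with lower levels share before their starts. Motifs were searched on both strands in the 250 bases before the start, and positions count back from it. Capitals mark the GC box GGGCGG in GDF15 and SESN2, and the hypoxia response element cores ACGTG and GCGTG in DDIT4, STC2 and VLDLR, on either strand. GDF15 and STC2 are shown over 30 bases only. Annotated exons of other transcripts cover most or all of their windows, the stretches shown included.
GDF15: agggggaggaGGGCGGgactgagcaggcgg
SESN2: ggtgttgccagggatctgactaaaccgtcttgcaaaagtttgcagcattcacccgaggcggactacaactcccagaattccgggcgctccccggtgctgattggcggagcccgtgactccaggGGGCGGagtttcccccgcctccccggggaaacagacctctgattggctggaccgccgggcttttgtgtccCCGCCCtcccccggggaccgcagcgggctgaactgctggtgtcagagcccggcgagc
DDIT4: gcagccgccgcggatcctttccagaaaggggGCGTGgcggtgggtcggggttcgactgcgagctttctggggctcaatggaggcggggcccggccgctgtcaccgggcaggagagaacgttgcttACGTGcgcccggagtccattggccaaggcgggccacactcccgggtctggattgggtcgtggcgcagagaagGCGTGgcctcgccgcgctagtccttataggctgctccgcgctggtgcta
STC2: catacaCACGCACGCaaacGCGTGgccgcc
VLDLR: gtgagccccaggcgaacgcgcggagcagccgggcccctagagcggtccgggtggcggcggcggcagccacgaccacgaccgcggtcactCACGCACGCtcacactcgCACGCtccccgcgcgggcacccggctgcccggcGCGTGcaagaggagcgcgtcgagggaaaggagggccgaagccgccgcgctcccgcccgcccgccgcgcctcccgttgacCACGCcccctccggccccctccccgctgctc

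The stretches lie on the strand of each gene at chr19:18386078-18386107 (GDF15), chr1:28259268-28259517 (SESN2), chr10:72273674-72273919 (DDIT4), chr5:173328626-173328655 (STC2) and chr9:2621537-2621786 (VLDLR). The core GCGTG occurred in 3 of the 5 windows, against 32.2% of the 35116 promoters of the same length, with 5 matches in VLDLR, 3 in STC2 and 2 in DDIT4. Some of these matches abut or overlap each other. VLDLR was also the richest in G and C, at 78.8% against a median of 58.0%, and such a composition raises the number of matches to GC-rich letters. ACGTG occurred in DDIT4 only, 125 to 121 bases before the start, against 18.5% of all promoters. DDIT4 and STC2 thus each held 3 cores, with log2 ratios of -0.33 and -1.75 in DDX24-sh1. GGGCGG occurred in GDF15, SESN2 and VLDLR (42.6% of all promoters). The C/EBP-ATF composite element TGATGNAA, which ATF4 heterodimers bind, occurred in 0 of the 5 windows (3.14% of all promoters), as did the cAMP response element TGACGTCA (1.65%). CCACG, the end of the endoplasmic reticulum stress element, which overlaps some of the GCGTG matches, occurred in DDIT4, STC2 and VLDLR (33.5%). These windows are short, and a match or its absence says only whether those letters are there.

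Among the secreted products, GDF15 encodes a distant member of the TGF-β family that is released by stressed cells and signals through GFRAL and RET in the brainstem. The gene (ENSG00000130513) spans positions 18374731 to 18389176 of chromosome 19 (GRCh38) on the plus strand. There were 10099 counts in Control-sh, against 3187 in DDX24-sh1 and 2230 in DDX24-sh2, or 592, 174 and 124 CPM. Both shRNA libraries were thus well below the control, DDX24-sh2 the lower of them. The log2 ratios were -1.76 (interval -1.82 to -1.71) and -2.26 (interval -2.33 to -2.19), a level 3.40-fold and 4.79-fold lower. DDX24-sh2 and DDX24-sh1 differed beyond counting error, and the log2 ratio between them (DDX24-sh2 to DDX24-sh1) was -0.50 (interval -0.57 to -0.42). Among the 13984 genes, GDF15 ranked 54th from the lowest ratio in DDX24-sh1 and 31st in DDX24-sh2. The microRNA gene MIR3189 lies inside GDF15 on the same strand and had 18, 9 and 15 counts, few beside the counts of GDF15.

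STC2 encodes stanniocalcin-2, a secreted glycoprotein that binds and inhibits the protease PAPP-A. It (ENSG00000113739) spans positions 173314713 to 173329503 of chromosome 5 on the minus strand. It had 4390 counts in Control-sh, against 1402 in DDX24-sh1 and 1464 in DDX24-sh2, or 257, 76.6 and 81.1 CPM. The shRNA libraries lay close together, 3.36-fold and 3.17-fold below the control. The log2 ratios were -1.75 (interval -1.83 to -1.66) and -1.66 (interval -1.75 to -1.58), and the interval of their difference, -0.03 to 0.19, included 0.

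VEGFA, the vascular endothelial growth factor that drives vessel growth, spans positions 43770184 to 43786487 of chromosome 6 on the plus strand (ENSG00000112715). Its counts were 1191 in Control-sh, against 494 in DDX24-sh1 and 463 in DDX24-sh2, or 69.8, 27.0 and 25.7 CPM. Again the shRNA libraries stood together below the control. The log2 ratios were -1.37 (interval -1.52 to -1.22) and -1.44 (interval -1.60 to -1.29), and the interval of their difference ran from -0.26 to 0.11. The gene has 32 annotated transcripts, 26 of them coding, and counts per gene do not separate its isoforms.

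Among the receptors, VLDLR encodes the very low density lipoprotein receptor, which takes up triglyceride-rich lipoproteins and also binds reelin. It (ENSG00000147852) spans positions 2621834 to 2660053 of chromosome 9 on the plus strand. Its 1122 counts in Control-sh compared with 323 in DDX24-sh1 and 357 in DDX24-sh2, or 65.7, 17.7 and 19.8 CPM. VLDLR had the lowest ratio of the 7 genes in DDX24-sh1. The log2 ratios were -1.89 (interval -2.08 to -1.72) and -1.73 (interval -1.91 to -1.56), or 26.9% and 30.1% of the control level. The antisense gene VLDLR-AS1 overlaps VLDLR from 2621834 to 2643359 and had 39 counts in Control-sh and 3 in each shRNA library. Whether counting used strand was not given in the sources used here, so reads in the shared interval may belong to either gene.

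TNFRSF10B encodes the death receptor DR5, which binds the ligand TRAIL and recruits FADD and caspase-8. It (ENSG00000120889) spans positions 23020133 to 23069179 of chromosome 8 on the minus strand. Its counts of 5478 in Control-sh, against 5637 in DDX24-sh1 and 5868 in DDX24-sh2, corresponded to 321, 308 and 325 CPM, and the shRNA libraries lay on either side of the control. The log2 ratios were -0.06 (interval -0.11 to -0.0047) and 0.02 (interval -0.03 to 0.07). TNFRSF10B was thus the exception among the 7 genes, at 96.0% and 101% of the control level. On the opposite strand it overlaps RHOBTB2 by 67 bases and the antisense gene AC107959.2, with 6, 5 and 2 counts, by 951 bases.

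The remaining genes encode intracellular brakes on mTORC1, the kinase complex that couples nutrients to growth. SESN2 encodes sestrin-2, a leucine sensor that binds the GATOR2 complex. The gene (ENSG00000130766) spans positions 28259527 to 28282491 of chromosome 1 on the plus strand. It had 713 counts in Control-sh, against 318 in DDX24-sh1 and 353 in DDX24-sh2, or 41.8, 17.4 and 19.6 CPM. The level was 2.40-fold and 2.14-fold lower, and the log2 ratios were -1.26 (interval -1.46 to -1.07) and -1.09 (interval -1.28 to -0.91). In DDX24-sh2 the interval thus extended above the 2-fold line. DDIT4 encodes REDD1, which restrains mTORC1 through the TSC complex. It (ENSG00000168209) spans positions 72273920 to 72276036 of chromosome 10 on the plus strand. It had 2595, 2212 and 1934 counts in the same order of libraries, or 152, 121 and 107 CPM. The log2 ratios were -0.33 (interval -0.41 to -0.25) and -0.50 (interval -0.59 to -0.42), or 79.5% and 70.5% of the control level. The smallest distance below the control among the 6 genes lower in both libraries was therefore that of DDIT4. The shRNA libraries differed from each other by -0.17 (interval -0.26 to -0.09).

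The plot of the ratios of both libraries places the 7 genes among all genes compared. Over all 13984 genes the median log2 ratios were -0.02 and -0.03. Ranked by the higher of the 2 ratios, GDF15 was 35th, VLDLR 39th, STC2 43rd, VEGFA 75th and SESN2 152nd from the lowest, whereas DDIT4 was 1676th and TNFRSF10B 5948th.

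**Figure D3:**
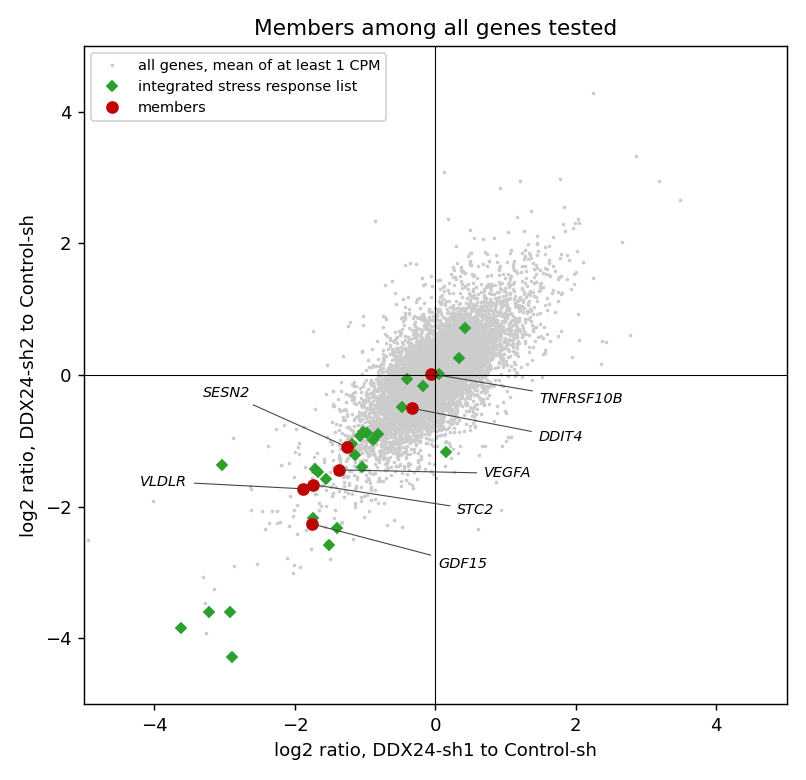
Log2 ratio to Control-sh in DDX24-sh1 (horizontal) and DDX24-sh2 (vertical) for the genes compared (grey), genes of the integrated stress response list (green) and the 7 genes described (red). Of 13984 genes, 1 lies outside the axes. Both axes share the control library, so the diagonal arrangement of the cloud is in part built in.

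The 5 genes closest to GDF15 in the pair of ratios, out of 11102 genes that averaged 5 CPM or more, were CBS, PPP1R15A, IL6, OLR1 and XBP1, at distances of 0.074 to 0.287 in log2 units over 3 libraries. PPP1R15A, which encodes the GADD34 subunit that reverses eIF2α phosphorylation, had 2973 counts in Control-sh, against 949 in DDX24-sh1 and 697 in DDX24-sh2, with log2 ratios of -1.75 and -2.17. CBS, an enzyme of transsulfuration, had 398, 119 and 89 counts, and it has a near-identical annotated copy, CBSL, listed with 0 counts in each library, so how shared reads were counted is uncertain. IL6, an inflammatory cytokine, had 592, 175 and 121 counts. XBP1, a transcription factor of the unfolded protein response, had 2702, 711 and 648 counts. Each was lower in DDX24-sh2 than in DDX24-sh1, which the choice by closeness to GDF15 fixes. When a mean of 20 CPM was required, CBS, IL6 and OLR1 dropped out through the filter. PPP1R15A and XBP1 stayed among the nearest 5, which was fixed in advance because the filter only removes genes.

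The relatives of the 7 genes went different ways. Of 21 relatives, 18 passed 1 CPM, and of these 9 were higher than the control in both shRNA libraries and 7 were lower in both, beside 34.6% and 40.2% of all genes compared. The medians were 0.28 and -0.02, the latter 0.0095 with total counts, 0.18 when 10 CPM was required and -0.22 without a filter on low counts. SESN3 had 179 counts in Control-sh, against 399 in DDX24-sh1 and 386 in DDX24-sh2. Relative to the control this was 1.05 (interval 0.80 to 1.32) on the log2 scale in the former shRNA library and 1.02 (interval 0.77 to 1.29). It was the 1 relative that was 2-fold higher in both, beside 1.19% of all genes compared, and 0 relatives were 2-fold lower in both, beside 1.38%. SESN1 had 126, 176 and 237 counts, with a ratio of 0.38 (interval 0.04 to 0.72), then 0.82 (interval 0.51 to 1.15). SESN2 was thus below the control, and the other two sestrin genes above it. On the length scale SESN2 held 83.3% of the summed sestrin level in Control-sh, against 56.1% in DDX24-sh1 and 55.3% in DDX24-sh2, while the sum was 14.5, 8.98 and 10.3 CPM per kb. The low-count paralogue of DDIT4, DDIT4L, had 45, 82 and 65 counts, and its interval included 0 in DDX24-sh2 (-0.12 to 1.03).

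STC1, the paralogue of STC2, had 851, 1265 and 775 counts, higher than the control in DDX24-sh1 (log2 ratio 0.47, interval 0.35 to 0.60) and lower in DDX24-sh2 (-0.22, interval -0.36 to -0.07). STC2 accordingly made up 77.7% of the length-scaled stanniocalcin level in Control-sh, against 42.9% in DDX24-sh1 and 56.1% in DDX24-sh2. Ligand genes VEGFB and VEGFC had log2 ratios of -0.01 and -0.01 in DDX24-sh1, and of -0.47 and -0.47 in DDX24-sh2, smaller in size than the -1.37 and -1.44 of VEGFA. PGF, a further VEGF ligand with only 51, 45 and 25 counts, was at -0.27 (interval -0.89 to 0.33) and -1.05 (interval -1.86 to -0.39). LRP8, a lipoprotein receptor that shares the ligand reelin with VLDLR, was above the control by 0.24 (interval 0.10 to 0.37) and 0.34 (interval 0.21 to 0.47) on the log2 scale. TNFRSF10A, which encodes the TRAIL receptor DR4, had ratios of 0.31 (interval 0.18 to 0.46) and 0.34 (interval 0.20 to 0.48), and the decoy receptor TNFRSF10D 0.54 and 0.30. Of the TGF-β family genes listed as relatives of GDF15, at 5 CPM or more, INHBB had the lowest mean ratio (-1.36 and -0.75), TGFB2 had -0.53 and -0.61, and BMP4 had -0.51 and -0.41. BMP2, with 52, 46 and 17 counts, was at -0.27 and -1.58. GDF11 was above the control in both libraries (0.43 and 0.26), and TGFB1 was at 0.01 and -0.39.

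Partners of the products were mostly low or near the control. GFRAL, the receptor of GDF15, had 0 counts in each library, which allows up to 0.176 CPM in Control-sh at 3 counts, and its co-receptor RET had 8, 10 and 6 counts. The VEGF receptors FLT1 and KDR had at most 5 counts. The VEGF co-receptors were well counted. NRP1 had log2 ratios of 0.12 and 0.10, and NRP2 of -0.03 and -0.34. PAPPA, the target of stanniocalcin-2, had 6980, 7780 and 6243 counts (ratios of 0.06 and -0.24), and its substrate IGFBP4 had 59669, 55229 and 50929 counts (-0.21 and -0.31). LRPAP1, the chaperone of VLDLR and its relatives, had ratios of 0.34 and 0.29. Of the 14 genes of this list 7 passed 1 CPM, and 0 of these were 2-fold higher or lower in both libraries. Of all genes compared, 1.19% were 2-fold higher and 1.38% 2-fold lower in both, so a count of 0 among so few genes sets the list apart from no other genes. The medians were 0.06 and -0.24.

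The integrated stress response and HIF programs, and the pathways on which the products act, were then described by gene lists from which the 7 genes were left out. The lists share some genes, SESN1 and SESN3 among them. Of 27 integrated stress response genes, 26 passed 1 CPM, 14 of these were at least 2-fold lower in both shRNA libraries and 0 were 2-fold higher in both, beside 1.38% and 1.19% of all genes compared. The median log2 ratios of the list were -1.11 and -1.19. ATF4 had 7178, 4137 and 3818 counts, with ratios of -0.89 and -0.99. At 5 CPM or more, the lowest mean ratios were those of the transcription factors DDIT3 (-3.63 and -3.85) and ATF3 (-2.92 and -3.60) and of CHAC1, which degrades glutathione (-2.90 and -4.28). DDIT3, which encodes CHOP, had 898, 76 and 64 counts. Below that level ADM2 (181, 19 and 14 counts) was at -3.22 and -3.59. At the other end were ATF5 (0.43 and 0.72) and the eIF2α kinase genes EIF2AK4 (0.34 and 0.26) and EIF2AK2 (0.05 and 0.02). The PERK gene EIF2AK3 was lower, at -0.81 and -0.90.

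The HIF list was centred near the control. Of 23 HIF targets 22 passed 1 CPM, with medians of 0.05 and 0.0011. None was 2-fold lower in either library, beside 2.27% of all genes compared in DDX24-sh1 and 3.07% in DDX24-sh2. EGLN3 and HK2, the latter named after its values were seen, were 2-fold higher in both, as were 1.19% of all genes. EGLN3, a prolyl hydroxylase that acts on HIF, had 74, 187 and 235 counts, and HK2, a hexokinase, had only 8, 27 and 40. Among genes at 5 CPM or more, mean ratios were lowest for ADM, a vasodilator peptide (-0.70 and -0.60), MXI1 (-0.23 and -0.69) and PFKFB3 (-0.37 and -0.38), and high also for PFKFB4 (0.74 and 0.99) and P4HA2 (0.22 and 0.23).

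Of the pathways on which TNFRSF10B and the mTORC1 brakes act, the TRAIL list was centred somewhat above the control in both libraries. The mTORC1 list was centred near the control. Of 14 genes of the TRAIL pathway, 11 passed 1 CPM, with medians of 0.31 and 0.30 and no 2-fold difference in either library. Of all genes compared, 2.27% in DDX24-sh1 and 3.07% in DDX24-sh2 were 2-fold lower, and 2.32% and 2.89% were 2-fold higher. A count of 0 among so few genes therefore sets the list apart from no other genes. Higher values in both libraries were found for 8 of the 11 and for 34.6% of all genes compared. The adaptor FADD (0.47 and 0.37) was among them. The caspase inhibitor XIAP (-0.13 and -0.45) and BID (-0.03 and -0.15) were the 2 lower in both (40.2% of all genes), and CASP10 was at -0.09 and 0.02. The ligand gene TNFSF10 had 3, 15 and 5 counts. DIABLO matched 2 rows and was left out. Of 26 mTORC1 genes, 25 passed 1 CPM, with medians of 0.03 and -0.02 (0.0089 in DDX24-sh2 with total counts). SESN3 was the 1 gene 2-fold higher in both libraries, beside 1.19% of all genes, followed by SESN1 and DDIT4L and, among genes at 5 CPM or more, by the Rag GTPase gene RRAGA (0.38 and 0.19). The lowest were RRAGB (-0.61 and -0.25), TBC1D7, a subunit of the TSC complex (-0.18 and -0.61), and the GATOR2 subunit SEC13 (-0.11 and -0.36).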

How the data were processed

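RNA-seq of A549 cells was available as 3 libraries, 1 per condition, grouped by their titles. The authors deposited raw counts per gene and FPKM values per gene. The submitters' processing notes name Bowtie2 2.0.6, TopHat2 2.0.9, Cufflinks 2.1.1 and Cuffdiff 2.1.1. The counter, the handling of strand and of reads that match several genes, and the genome build were not given in the sources used here. All 58735 genes match GENCODE 29 (GRCh38) in identifier, start and end.

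From the counts, log2 ratios were computed in edgeR 4.0.16 under R 4.3.3 (TMM scaling, prior count of 2). No model was fitted and no p-value computed, because each condition has 1 library. Intervals (exact 95% binomial) and the limit of 3 counts for a count of 0 cover counting error only, since without molecular identifiers a read need not be its own molecule. At this depth the interval of a DDX24-sh1 log2 ratio ran from -1.82 to -1.71 for GDF15 and from -1.46 to -1.07 for SESN2. A gene was counted as 2-fold lower or higher at a log2 ratio of 1 in size, out of the genes whose mean was 1 CPM or more.

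The 7 genes and the 6 gene lists described were chosen with earlier results of these data known. Within a list, genes named were the 3 lowest and the 3 highest by mean ratio at 5 CPM or more, direct partners and relatives of the 7 genes, and, for GDF15, the 5 genes with the smallest Euclidean distance in the 2 ratios. ATF4, EIF2AK3, ADM2, BMP2, GDF11, TGFB1, PGF, HK2 and the cell markers are named outside that rule, after their values were seen. Some genes and gene sets are not reported here. Steps were tested on simulated data. Figures used matplotlib 3.10.9 in Python 3.11.15. Alternatives were DESeq2 1.42.0 size factors, total counts, log2(FPKM + 0.1) with labels as given and exchanged, a prior count of 0.5, other filters and thresholds.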

Additional observations from a re-analysis of the deposited data

Results flagged for a closer look

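The shRNA libraries lay on opposite sides of the control, each beyond counting error, for 3 of the partners and relatives of the 7 genes. This difference between the hairpins was not tested, since each has 1 library. STC1, the paralogue of STC2, was above the control in DDX24-sh1 (log2 ratio 0.47) and below it in DDX24-sh2 (-0.22). FURIN, a protease that matures secreted precursors, had ratios of 0.15 and -0.44. PAPPA, the protease inhibited by stanniocalcin-2, had ratios of 0.057 and -0.24.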

How the results depend on the processing

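No paired analysis was possible because each group has 1 library and the groups share no more than 1 replicate number. DESeq2 size factors, total counts, a prior count of 0.5 and the deposited FPKM with the shRNA labels exchanged each left the ratios of the 7 genes inside their counting intervals, the counts and shares within 1.5 times, and 5 genes 2-fold lower in both libraries. List medians moved by less than the median counting error of their genes, but with total counts the DDX24-sh2 medians near 0 turned sign for mTORC1 (0.0089) and relatives (0.0095). With FPKM labels as given, the ratios in DDX24-sh1 and DDX24-sh2 were -2.25 and -1.75 for GDF15, -0.49 and -0.32 for DDIT4, and 0.028 (reversed) and -0.045 for TNFRSF10B, and in DDX24-sh1 -1.65 for STC2 and -1.68 for VLDLR. The list medians were then -0.23 and 0.070 for partners and -0.010 and 0.29 for relatives. This follows from the exchanged labels. The share of all genes 2-fold lower in both was 3.35% without a filter, and the share past 1.5-fold was 4.72%. The 2-fold share was 2.27% in DDX24-sh1 alone and 3.07% in DDX24-sh2 alone. The share higher was 2.64%, 4.23%, 2.32% and 2.89% under the same settings and 0.352% at a mean of at least 10 CPM, where the integrated stress response median in DDX24-sh2 was -1.02. These shares move with the limits by construction. One control library limits every ratio, and how that library happened to differ cannot be told apart from knockdown.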
